A study of Mus musculus with 9 samples.

Results

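Microglia given R848 alone were compared with microglia given IFN-α alone, a contrast of 6 of the 9 RNA sequencing libraries of a study of primary mouse microglia. The 6 were taken by their labels, 3 per agent. Microglia, the resident macrophages of the brain, were obtained from mixed glial cultures of 3-day-old ICR pups (an outbred mouse stock), plated for 24 h and treated for 4 h. The R848 group received R848 at 1 µM, the IFN-α group received IFN-α at 100 U/ml, and the remaining 3 libraries, which received both, enter only where all 9 libraries are named. The labels name no genetic change, and every group shares the stock, the culture and the treatment time. Untreated cells are not analysed here. "Higher with R848" therefore always means higher than with IFN-α, and whether R848 raised a transcript or IFN-α lowered it cannot be told apart. No label ties a replicate to its own culture or litter. The spread that p-values rest on is therefore that between libraries and may be only technical.

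The agents enter macrophages by separate routes. R848, also called resiquimod, activates TLR7, an RNA receptor of endosomes that signals through the adaptor MyD88 and IRAK kinases to NF-κB, AP-1 and IRF5. IFN-α binds the receptor IFNAR at the cell surface, whose kinases JAK1 and TYK2 activate the transcription factor complex ISGF3, which binds interferon-stimulated response elements in promoters. TLR signalling can itself induce type I interferon, and interferon-responsive genes include TLR7 and IRF7, so the routes are known to meet.

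Gene counts per library ran from 2817772 to 3298567 with R848 and from 2505941 to 2852960 with IFN-α, and 1 CPM (a count divided by the scaled gene total, times 1e+06) stood for about 3 counts. The ribosomal transcript Rn45s held 14.8% to 22% and 16% to 26.1% of these counts, with the highest share in replicate 1 of each group. The leading principal component held 83.4% of the variance and separated the agents, and R848 replicate 1 stood apart from the other R848 libraries on the next, which held 6.01%. The label of microglia was checked against markers: all 15 macrophage markers were tested, with summed levels of 7007 to 7258 CPM in R848 libraries and 9992 to 10454 CPM in IFN-α libraries. Markers of other cells were present too. Summed astrocyte markers were at 1558 to 1843 and 1272 to 1594 CPM, with 10 of 11 tested, of which 4 were lower and 1 higher with R848 (median -0.43; up to 3 higher over the alternatives). Oligodendrocyte markers were at 535 to 569 and 699.9 to 831 CPM, with 9 of 11 tested, neuron markers at 146 to 163 and 154 to 192 CPM, with 4 of 7, and fibroblast and pericyte markers at 211 to 261 and 177 to 255 CPM, with 8 of 9. Summed endothelial markers were at 18.6 to 22.6 and 55.9 to 72.3 CPM. Of the 3 tested, Kdr and Flt1 were lower with R848 and Cdh5 was not called. Pecam1 had 2 and 1 counts over the R848 and IFN-α libraries, Cldn5 had 1 and 0, and Emcn was at 0 in all. Of the other leukocyte markers only S100a8 was tested, and Cd79a, Ms4a1, Ncr1, S100a9, Mpo and Elane were at 0. The microglial, oligodendrocyte, endothelial and other leukocyte sums did not overlap between the agents, and their part in the results below was not tested. In bulk RNA, fewer cells of a type and less RNA per cell cannot be told apart.

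Each agent had its own set of transcripts. Of 10829 genes tested, edgeR's quasi-likelihood F test called 3864 (35.7%) at an adjusted p under 0.05. With R848, 1772 genes (16.4%) were higher and 2092 (19.3%) lower, with median log2 fold changes of 0.83 and -1.02. With library totals in place of TMM scaling factors the split turned, to 2052 higher and 1686 lower, and the median of all genes moved to 0.10 on the log2 scale. It turned with upper-quartile factors too, to 2144 higher and 1859 lower, with a median of 0.074. Beyond 2-fold, by edgeR's test against a fold of 2, 417 genes (3.85%) were higher and 678 (6.26%) lower. At least 16-fold differences were called for 56 genes in the higher direction and 120 in the lower. Libraries of the agents did not overlap for 5041 genes (46.6%). The median over all genes tested was 0 to 3 decimals (-4.72e-04). The changes below are read against this centre, which follows from the TMM scaling and moved with the other factors as given above.

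The 417 genes beyond 2-fold with R848 held 15.6% to 16.6% of all gene counts other than Rn45s in the R848 libraries and 2.62% to 2.71% in the IFN-α libraries. The 678 genes on the IFN-α side held 15.6% to 16.1% there and 2.60% to 2.71% with R848. These genes were chosen on the same contrast, so the shares are a description. A similar part of the counted RNA thus lay in each agent's own set. The 10 most counted genes on the R848 side (Fth1, Il1b, Tnf, Il1a, Ccl3, Cxcl2, Cd14, Irg1, Eif4g2 and Sqstm1) held 5.21% to 5.64% of an R848 library. The 10 on the IFN-α side (Cmpk2, Ifit2, Rsad2, Cd274, Ifit3, Slfn5, Ifi202b, Tor3a, Ifit1 and Nampt) held 2.97% to 3.17% of an IFN-α library.

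**Figure D1:**
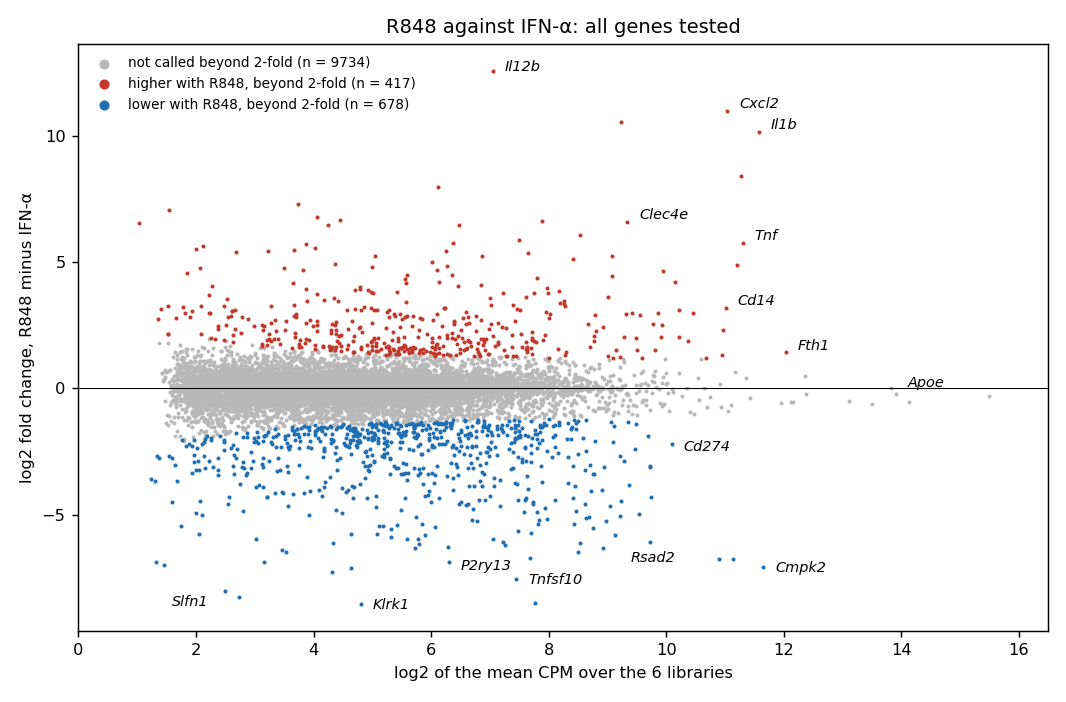
Log2 fold change of R848 minus IFN-α against the log2 mean CPM of the 6 libraries, 1 point per gene tested. Red points are the 417 genes higher and blue points the 678 lower with R848 beyond 2-fold, and the named red genes at the right end (Il1b, Tnf, Cxcl2) face Cmpk2 and Rsad2 among the blue. Heights of genes at or near 0 in a group, such as Il12b, Slfn1 and Klrk1, depend on the fit's prior count.

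Inflammatory cytokine genes led the R848 side. Il1b (chr2:129364569-129371164), which encodes the pyrogenic cytokine IL-1β, was at 5772, 5887 and 6599.9 CPM in R848 replicates 1, 2 and 3 and 6.72, 6.68 and 2.78 CPM in the IFN-α replicates, a log2 fold change of 10.16 ± 0.17 (± SE). Tnf (chr17:35199367-35202007) was at 5559, 4537 and 4824 CPM in the R848 libraries and 83.6, 80.2 and 109 CPM in the IFN-α libraries (5.77 ± 0.12). Every R848 library was far above every IFN-α library for both. Il12b (chr11:44400063-44414677), which encodes the p40 chain shared by IL-12 and IL-23, was at 241, 255 and 301 CPM with R848 and at 0 in all 3 IFN-α libraries, so that it was at least 691-fold higher when the IFN-α group is set at 3 counts in all. Il6, an acute-phase cytokine, was at 113, 139.8 and 153 CPM with R848 against 15.1, 13.4 and 16.3 CPM with IFN-α (3.17 ± 0.16). Among the IL-6, IL-10 and IL-12 families, 7 of 20 tested genes were higher and 8 lower (median 0.21): the higher ones included Il27 (2.68 ± 0.32) and Lif (2.30 ± 0.20), and the lower ones Il21r (-4.34 ± 0.21), Il15 (-2.86 ± 0.20) and its receptor chain Il15ra (-2.91 ± 0.20). IL-15 supports natural killer and memory T cells. Its gene averaged 7.94 CPM in R848 libraries and 57.6 CPM in IFN-α libraries. Il10, the gene of an anti-inflammatory cytokine, was below the count filter, with 5, 6 and 13 counts in the R848 libraries and 0, 0 and 1 in the IFN-α libraries, a ratio of 20.1 (95% counting interval 3.27 to 825). The adjusted p of the genes given a log2 fold change here was at most 1.02e-06, for Il27.

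In the IL-1 family 4 of 9 tested genes were higher and 3 lower. Il1a was 8.41 ± 0.12 and the receptor antagonist gene Il1rn 0.92 ± 0.09 on the log2 scale. Casp1, the protease that activates IL-1β and IL-18, was at 68.9, 58.8 and 69.6 CPM in the R848 libraries and 158, 188 and 174 CPM in the IFN-α libraries (-1.40 ± 0.11), Il18 differed by -1.23 ± 0.16 and its decoy Il18bp by -2.17 ± 0.22. Casp1 libraries did not overlap between the agents. Nlrp3, the sensor that recruits Casp1, was by contrast at 455, 349 and 373 CPM in the R848 libraries and 10.5, 8.65 and 9.72 CPM in the IFN-α libraries (5.35 ± 0.15). In the inflammasome and cell death list 8 of 32 genes were higher and 17 lower (median -0.64). Besides Nlrp3 the higher ones were led by the BCL2-like survival genes Bcl2a1a (4.66 ± 0.20), Bcl2a1d (3.59 ± 0.14) and Bcl2a1b (2.54 ± 0.10), near-identical copies whose counts are uncertain. The lower ones were led by Nod1, a sensor of bacterial peptidoglycan (-4.57 ± 0.16), the necroptosis executor Mlkl (-3.82 ± 0.35), Daxx (-3.30 ± 0.14) and Casp8 (-2.19 ± 0.14). The largest adjusted p among these was 2.12e-06, for Il18.

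The TNF superfamily split evenly, with 8 of 20 genes higher and 8 lower. Tnfsf10, which encodes the death ligand TRAIL, was at 2.16, 1.69 and 1.59 CPM in the R848 libraries and 346, 342 and 354 CPM in the IFN-α libraries (-7.54 ± 0.17). On the R848 side were the signalling adaptor Traf1 (5.45 ± 0.21), the T cell costimulator Tnfsf9 (3.46 ± 0.28) and the receptor Tnfrsf1b (3.08 ± 0.10). The other TNF receptor gene, Tnfrsf1a, chosen here after its values were seen, lay on the IFN-α side (-0.96 ± 0.10), at 174, 151 and 159 CPM with R848 against 294, 307 and 342 CPM with IFN-α, as did the death receptor gene Tnfrsf21 (-1.95 ± 0.11). Adjusted p-values for the log2 fold changes here reached at most 8.22e-08, for Tnfrsf1a.

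Chemokine genes, whose products attract leukocytes, fell on both sides. Of 13 CXC and CX3C chemokine genes 10 were higher and 3 lower (median 1.33). Of 10 CC chemokine genes 7 were higher and 2 lower (median 2.24). Cxcl2 was at 4166, 4039 and 4404 CPM in the R848 libraries and 1.68, 1.97 and 2.43 CPM in the IFN-α libraries (10.97 ± 0.14), Cxcl1 at 1204, 1168 and 1246 CPM with R848 against 0.840, 0.393 and 1.04 CPM with IFN-α (10.54 ± 0.17), and Cxcl3 at 155, 132 and 127 CPM with R848 against 1.26, 0 and 0.347 CPM with IFN-α (7.96 ± 0.29). These neutrophil-attracting ligands of CXCR2 were near or below 2.5 CPM in every IFN-α library. Ccl3 (4.88 ± 0.10), Ccl5 (3.78 ± 0.17) and Ccl9 (3.47 ± 0.12) led the CC genes. On the IFN-α side were Cxcl9 (mean 2.46 CPM with R848 against 64.3 CPM with IFN-α, -4.68 ± 0.22) and Cxcl10 (mean 26.9 CPM with R848 against 161 CPM with IFN-α, -2.58 ± 0.12), ligands of the T cell receptor CXCR3, and Ccl8 (-4.30 ± 0.36) and Ccl12 (-3.34 ± 0.16), which attract monocytes. Across the log2 fold changes given here the largest adjusted p was 5.81e-09, for Ccl8.

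The sequences upstream of the 3 neighbouring chemokine genes are shown because each holds a match to part of the κB site bound by NF-κB. Of the named genes with such a match they had the largest changes on the R848 side. Il12b, Il1b and Il1a, whose changes were larger than that of Cxcl3, were passed over for lack of a match or of a promoter window. Printed are the 250 bases before the RefSeq transcript start (GRCm38.p6, 5′ to 3′ on the gene's strand), with the match to GGGANTTTC, on either strand, in capitals. They lie at chr5:90903649-90903898, chr5:90890995-90891244 and chr5:90785851-90786100, all on the plus strand.
Cxcl2: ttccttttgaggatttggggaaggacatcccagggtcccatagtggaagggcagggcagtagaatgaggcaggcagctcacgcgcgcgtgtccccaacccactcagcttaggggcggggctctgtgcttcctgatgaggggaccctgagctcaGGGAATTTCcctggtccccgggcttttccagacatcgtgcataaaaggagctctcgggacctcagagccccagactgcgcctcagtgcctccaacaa
Cxcl1: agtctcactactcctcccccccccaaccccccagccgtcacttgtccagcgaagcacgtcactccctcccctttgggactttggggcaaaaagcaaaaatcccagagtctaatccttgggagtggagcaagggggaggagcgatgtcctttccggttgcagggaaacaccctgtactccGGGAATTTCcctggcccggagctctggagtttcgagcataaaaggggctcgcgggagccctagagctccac
Cxcl3: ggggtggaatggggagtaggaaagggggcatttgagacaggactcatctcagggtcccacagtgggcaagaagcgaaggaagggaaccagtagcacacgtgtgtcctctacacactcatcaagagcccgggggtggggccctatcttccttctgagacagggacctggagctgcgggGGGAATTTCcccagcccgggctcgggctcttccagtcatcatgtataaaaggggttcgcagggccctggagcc
The matches began 97, 71 and 73 bases before the start, and all 3 genes held the same letters there, GGGAATTTC. In windows from 250 bases before to 50 after the start, GGGANTTTC was present for 7 of 41 tested genes (17.1%) of the NF-κB, chemokine and IL-1 lists that had a window, for 8 of 318 genes (2.52%) higher beyond 2-fold and for 13 of 535 genes (2.43%) lower beyond 2-fold. It was present for 1.14% of 8693 tested genes with a window and in 1.11% of all 32851 windows. A match describes letters and is not a bound site.

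NF-κB genes were higher with R848 in 17 of 20 cases and lower in none, with a median of 1.64 and 11 of them beyond 2-fold. Most of the leading members encode inhibitors that shut the pathway down after activation. Nfkbia, which encodes IκBα, was at 626, 519 and 540.0 CPM in the R848 libraries and 58.4, 54.2 and 64.6 CPM in the IFN-α libraries (3.25 ± 0.11). Tnfaip3, which encodes the deubiquitinase A20, was 3.62 ± 0.10, and the A20-binding genes Tnip3 and Tnip1 were 5.23 ± 0.28 and 4.02 ± 0.28. Nfkbiz, an IκB-like coactivator of secondary response genes, was 4.45 ± 0.10. Some other brakes moved the same way. Irak3, which encodes an inactive IRAK kinase that limits TLR signalling, was at 231, 219.9 and 231 CPM in the R848 libraries and 7.56, 5.50 and 4.86 CPM in the IFN-α libraries (5.26 ± 0.16). The RNases Zc3h12c (3.83 ± 0.12) and Zc3h12a (2.84 ± 0.15) belong to the regnase family, which degrades cytokine mRNA. In the mRNA decay list, 5 of 13 genes were higher and 5 lower. Arid5a, whose product stabilises Il6 mRNA, was among the lower (-2.84 ± 0.21), with the poly(A) polymerase genes Fam46a (-3.66 ± 0.15) and Fam46c (-3.15 ± 0.17). Not all brakes were higher: the mRNA decay gene Zfp36l2 was lower too (-1.83 ± 0.18). edgeR's adjusted p for these log2 fold changes was at most 6.30e-08, for Zfp36l2.

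**Figure D2:**
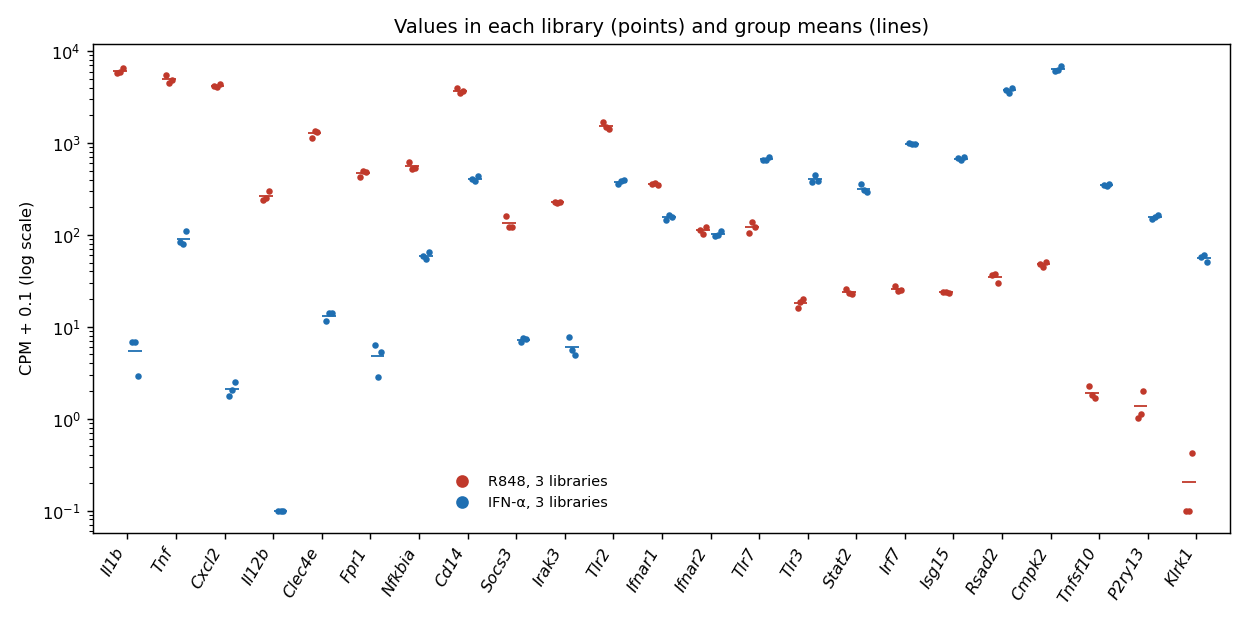
CPM + 0.1 on a log scale for 23 genes, with points for the 3 R848 libraries (red) and 3 IFN-α libraries (blue) and lines for group means. Points at 0.1 are libraries with 0 counts, and the red and blue points do not overlap for any gene shown except Ifnar2.

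Antiviral effector genes formed the core of the IFN-α side. The 6 IFIT genes, whose products bind foreign RNA, the 9 OAS and RNase L genes, which sense and cut double-stranded RNA, and the 5 genes of the ISG15 conjugation system were all lower with R848, with medians of -5.80, -4.34 and -4.33. Of 21 other antiviral genes 18 were lower and none higher (median -3.39); the 3 not called were Ifitm1, Ifitm2 and Ifi27, and 1 became higher without replicate 1 of both groups. Cmpk2 (chr12:26469117-26479837), a mitochondrial nucleotide kinase, was at 48.5, 44.6 and 50.2 CPM in the R848 libraries and 6138, 6172 and 6867 CPM in the IFN-α libraries (-7.06 ± 0.10), and its neighbour Rsad2 (chr12:26442743-26456452), the antiviral enzyme viperin, at 36.8, 37.2 and 30.2 CPM with R848 against 3822, 3537 and 3978 CPM with IFN-α (-6.77 ± 0.11). The 3 libraries of each agent lay within a narrow band for both. Cmpk2 and Rsad2 were nonetheless detected in every R848 library, as were Mx1 (12.1, 10.5 and 13.4 CPM) and Isg15 (24.1, 24 and 23.2 CPM), against 970.4, 930.5 and 961 and 688, 650.2 and 698 CPM with IFN-α. Usp18, which removes ISG15 and dampens IFNAR signalling, was -5.79 ± 0.13 and Oas3 -6.09 ± 0.17. Ifit1bl1 (-8.47 ± 0.17) and Ifit3b (-5.52 ± 0.12) have close copies, so their counts are uncertain. For every log2 fold change here the adjusted p was at most 7.55e-17, for Oas3.

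Promoters of 3 of these genes are shown because each holds a match to the core of the interferon-stimulated response element, the known site of ISGF3. Genes with larger changes were passed over where they had no match or no promoter window, or belong to families of close copies. Printed are the 250 bases before the RefSeq start (GRCm38.p6, 5′ to 3′ on the gene's strand), with matches to the core GAAANNGAA on either strand in capitals. They lie at chr12:26456453-26456702, chr3:151762892-151763141 and chr5:120777660-120777909, all on the minus strand.
Rsad2: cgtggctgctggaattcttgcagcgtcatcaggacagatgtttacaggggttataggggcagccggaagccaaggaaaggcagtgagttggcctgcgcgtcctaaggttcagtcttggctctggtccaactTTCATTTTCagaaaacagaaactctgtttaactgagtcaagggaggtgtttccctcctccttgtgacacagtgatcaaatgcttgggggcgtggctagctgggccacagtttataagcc
Ifi44l: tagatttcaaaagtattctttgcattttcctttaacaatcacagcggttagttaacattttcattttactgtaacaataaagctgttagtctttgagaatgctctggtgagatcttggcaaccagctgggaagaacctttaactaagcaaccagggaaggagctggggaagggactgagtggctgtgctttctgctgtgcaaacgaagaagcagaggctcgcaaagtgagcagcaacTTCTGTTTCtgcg
Oas3: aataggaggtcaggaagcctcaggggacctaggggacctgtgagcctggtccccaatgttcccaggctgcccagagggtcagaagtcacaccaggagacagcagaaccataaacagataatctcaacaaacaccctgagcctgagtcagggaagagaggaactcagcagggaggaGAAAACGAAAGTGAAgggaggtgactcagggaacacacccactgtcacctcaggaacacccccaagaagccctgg
The match nearest to the start began 119, 13 and 69 bases before it, and Oas3 held 2 that overlap. The core was present in the 300-base window of 29 of 43 genes (67.4%) in the IFIT, OAS, ISG15, antiviral, GBP and IRG lists. Among genes beyond 2-fold it was present for 125 of 535 (23.4%) on the IFN-α side and 27 of 318 (8.49%) on the R848 side. The share was 8.98% of tested genes with a window and 8.56% of all windows. In the NF-κB, chemokine and IL-1 lists 8 of 41 genes (19.5%) held it.

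Families of interferon-induced proteins that act inside infected cells were lower with R848 almost throughout. All 11 guanylate-binding proteins (median -3.33) and all 7 tested immunity-related GTPases (median -5.36), which attack vacuoles that hold microbes, were lower, led by Gbp11 (-4.83 ± 0.19), Iigp1 (-6.48 ± 0.18) and Tgtp2 (-6.28 ± 0.24). All 8 Schlafen genes were lower (median -4.12), and Slfn1 was at 0 in every R848 library and at least 34.7-fold lower there. In the PYHIN and DNA-sensing list 13 of 14 were lower, including Pyhin1 (2.78, 3.38 and 5.41 CPM with R848 against 398, 405 and 416 CPM with IFN-α, -6.70 ± 0.16) and Ifi203 (-5.07 ± 0.12). Pydc4 was at 0 with R848 and at least 41.9-fold lower, and Pydc3 had 2 counts over the R848 libraries, a ratio of IFN-α to R848 of 185 (95% counting interval 50.9 to 1538). Of 13 PARP genes 9 were lower and none higher, among them Parp12 (-3.37 ± 0.10). Of 16 TRIM genes 12 were lower, led by Trim30b, at 0 with R848 and at least 17.2-fold lower, and Trim30d (-5.37 ± 0.22), and 2 were higher, led by Trim13 (1.88 ± 0.22); without IFN-α replicate 1 or 2, only 1 was higher. Many of these genes have close copies, and reads that map to several places were not counted, so single members are uncertain. Among these log2 fold changes the largest adjusted p was 6.22e-07, for Trim13.

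The IFN-α side was also clustered along the chromosomes. Ordered by position among the genes tested, 13 runs of at least 4 neighbours were lower with R848 beyond 2-fold, and they held 79 of the 676 such genes with a RefSeq position. No run of 4 was found among the 417 genes on the R848 side, whose longest runs, 8 in number, had 3 genes. Runs of 2 or more held 33.7% of the genes on the IFN-α side and 24.9% on the R848 side. The longest, at chr1:172581377-174031755 (GRCm38.p6), held 12 genes from Slamf8 to Ifi205, among them the DNA sensor gene Aim2, Pyhin1, Ifi203 and Ifi204, with a median log2 fold change of -4.16. The next held 10 genes at chr11:48865245-49135387, from Irgm1 to Olfr56, with a median of -6.05. Others held the 6 IFIT genes at chr19:34550550-34662981, 6 OAS genes at chr5:120730333-120907544, Gbp genes on chr5 and chr3, Phf11 genes with Setdb2 on chr14, and Sp100, Sp110 and Sp140 on chr1. Not all runs are single gene families: Psmb9, Tap1, Psmb8 and Tap2 are neighbours within the MHC at chr17:34182030-34216321. On the R848 side the runs of 3 included Cxcl3, Cxcl1 and Cxcl2, then Has1, Fpr1 and Fpr2, then Bcl2a1d, Bcl2a1a and Bcl2a1b. The genes named only for their place in a run were chosen after their values were seen.

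**Figure D3:**
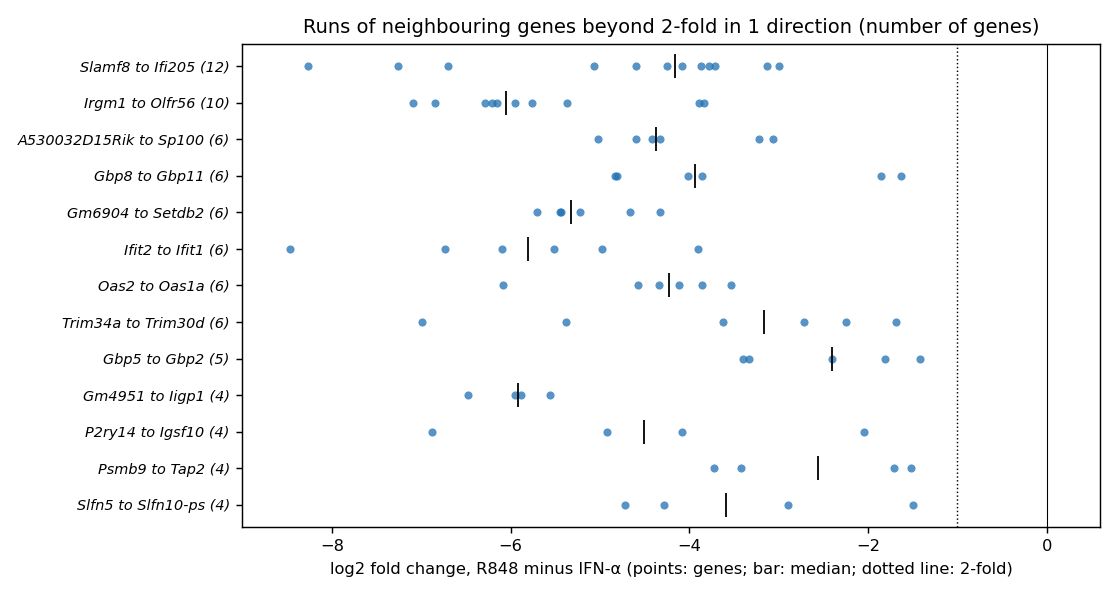
Log2 fold change of R848 minus IFN-α for the genes of each of the 13 runs of at least 4 neighbouring tested genes, 1 row per run with its first and last gene and the number of genes. Points are genes and bars run medians, and every point lies left of the dotted line at 2-fold, on the IFN-α side.

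The receptors that detect both agents and the genes of their signalling routes also differed. Tlr7, the receptor of R848, was at 105, 137 and 122 CPM in the R848 libraries and 646, 653 and 714 CPM in the IFN-α libraries (-2.47 ± 0.10). Ifnar1 was at 360.4, 365 and 346 CPM in the R848 libraries and 145, 164 and 157 CPM in the IFN-α libraries (1.20 ± 0.093). Each agent's libraries thus held less mRNA of that agent's own receptor chain than the other's, with no overlap. Ifnar2, the other IFN-α receptor chain, was at 114, 103 and 121 CPM with R848 against 97.9, 100.2 and 111 CPM with IFN-α, a log2 difference of 0.13 ± 0.11 with a 95% interval of -0.10 to 0.36 (adjusted p = 0.396). Among 14 Toll-like receptors and co-receptors 9 were lower with R848 and 3 higher. The 3 higher ones serve at the cell surface: Cd14 (mean 3724 CPM with R848 against 408 CPM with IFN-α, 3.19 ± 0.087), Tlr2 (mean 1543 CPM with R848 against 379 CPM with IFN-α, 2.02 ± 0.09) and Tlr1 (1.96 ± 0.17). The lower ones included the endosomal nucleic acid sensors Tlr3 (mean 18.1 CPM with R848 against 406 CPM with IFN-α, -4.48 ± 0.13), Tlr9 (-4.03 ± 0.27) and Tlr7, and also the surface pair Cd180 (-3.23 ± 0.10) and Ly86 (-2.49 ± 0.10). Among called genes, the largest adjusted p here was 1.02e-08, for Tlr1.

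On the interferon route, Stat2 was at 25.7, 23.3 and 22.6 CPM in the R848 libraries and 356, 308 and 291 CPM in the IFN-α libraries (-3.73 ± 0.12), and Irf9, which acts with it in ISGF3, differed by -1.49 ± 0.12. Both were lower with R848, and their libraries did not overlap between the agents. Of 8 interferon regulatory factor genes 7 were lower, led by Irf7 (mean 25.8 CPM with R848 against 979 CPM with IFN-α, -5.24 ± 0.10) and Irf2 (-2.41 ± 0.12), and including Irf5, which acts below TLR7 (-1.71 ± 0.10), and Irf8 (-1.69 ± 0.12). Irf3, which is regulated mainly at the protein level, was not called (log2 difference 0.35 ± 0.17, unadjusted 95% interval 0.0033 to 0.70, adjusted p = 0.112). The cytokine-signalling inhibitors split: Socs3 (159.5, 121 and 121 CPM with R848 against 6.72, 7.47 and 7.29 CPM with IFN-α, 4.21 ± 0.18) and Cish (2.84 ± 0.42) were higher with R848 and Socs1 (-1.07 ± 0.20) lower. Of 10 cytosolic RNA-sensing genes 6 were lower, led by Ddx60 (-4.89 ± 0.13), Dhx58 (-4.79 ± 0.14) and Ifih1, which encodes MDA5 (-4.43 ± 0.12). The kinase gene Ikbke (2.39 ± 0.11) and the RIG-I ubiquitin ligase Rnf125 (3.00 ± 0.52) were among the 3 higher. Among TLR adaptors and kinases 8 of 21 were higher and 4 lower, the lower ones led by Peli1 (-1.87 ± 0.10). That lower count was 1 with library totals in place of TMM factors. Myd88 differed by -0.44 ± 0.10, a call that ended at an adjusted p of 0.0632 with those totals. Among called genes, the largest adjusted p here was 0.00139, for Myd88.

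The interferon genes looked at, Ifnb1, Ifna2 and Ifna4, gave almost no counts. Ifnb1 had 1, 0 and 0 counts with R848 and 0, 2 and 0 with IFN-α, Ifna2 had 1 count in all and Ifna4 none. No difference between the agents was detectable for these genes at this depth, at which 3 counts correspond to 0.927 to 1.26 CPM. Reads that map to several places were not counted, which can hide genes with close copies. Other interferon genes are not given here.

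**Figure D4:**
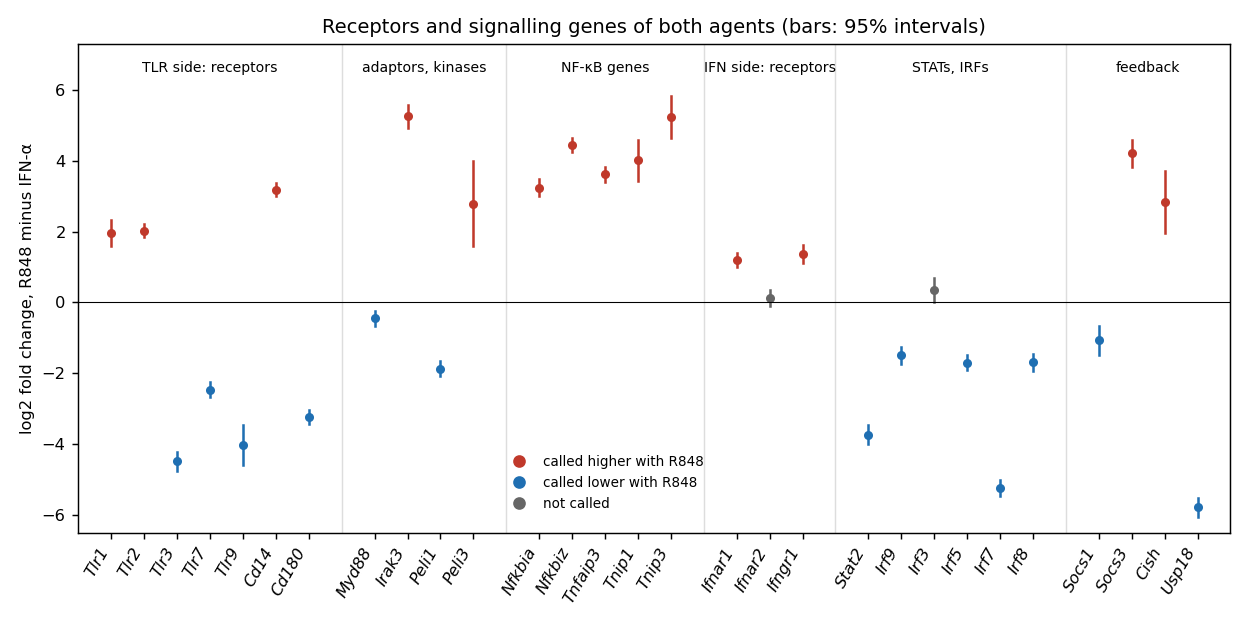
Log2 fold change of R848 minus IFN-α, with 95% intervals from edgeR's fit, for receptors and signalling genes of the TLR route (left) and the interferon route (right). Red genes were called higher and blue genes lower with R848, grey genes were not called, and Tlr7 and Ifnar1 lie on opposite sides of 0.

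In MHC class I presentation 15 of 18 genes were lower with R848 and none higher (median -1.5): the transactivator Nlrc5 (-3.85 ± 0.10), the peptide transporter Tap1 (-3.72 ± 0.13), the immunoproteasome subunit Psmb9 (-3.42 ± 0.13) and the nonclassical class I gene H2-T23 (-3.08 ± 0.11) led. One member became higher in 5 of the 18 alternative settings tried. Of 48 proteasome genes 14 were higher and 9 lower, a share called of 47.9%, against 35.7% of all genes tested. The immunoproteasome subunit genes Psmb9 and Psmb10 (-2.15 ± 0.10) and the gene Psme2b (-3.89 ± 0.26) were on the IFN-α side. The proteasome activator gene Psme2, after which Psme2b is named, was tested and not called. Psma6, a subunit of the constitutive core, was at 279, 294 and 300.2 CPM with R848 against 103, 114 and 103 CPM with IFN-α (1.45 ± 0.10). In the list of costimulation and class II genes 7 of 11 tested were higher, led by the ICOS ligand Icosl (2.81 ± 0.15), the class II invariant chain Cd74 (2.34 ± 0.35), Cd38 (2.15 ± 0.10) and Cd40 (1.83 ± 0.11). The class II genes H2-DMa and H2-DMb1 were not called, and H2-Aa, H2-Ab1, H2-Eb1 and Ciita were too low to test. The 2 lower members were Cd86 (43.6, 35.1 and 29.9 CPM with R848 against 207, 204 and 213 CPM with IFN-α, -2.52 ± 0.13) and Cd274, which encodes the inhibitory ligand PD-L1 (382, 368 and 431 CPM with R848 against 1689.6, 1752 and 1948 CPM with IFN-α, -2.19 ± 0.09). Their R848 libraries all lay below their IFN-α libraries. The adjusted p of the genes given a log2 fold change here was at most 1.66e-05, for Cd74.

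Receptors for extracellular nucleotides, by which microglia sense injury, were among the genes that differed most. Of 14 tested genes 8 were lower and 3 higher. P2ry13 was at 0.927, 1.01 and 1.91 CPM in the R848 libraries and 149, 156 and 165 CPM in the IFN-α libraries (-6.88 ± 0.21). P2ry12, the ADP receptor that steers microglial processes, was at 2.78, 3.04 and 1.91 CPM with R848 against 47.5, 41.7 and 44.1 CPM with IFN-α (-4.09 ± 0.23), P2ry14 differed by -4.92 ± 0.29, and Entpd1, which encodes the ATP-degrading enzyme CD39, by -3.40 ± 0.15. P2ry14, P2ry13 and P2ry12 are neighbours on chr3 and form one of the runs with Igsf10. The adenosine receptors Adora2a and Adora2b had 3 counts each over the IFN-α libraries and 352 and 407 over the R848 libraries, ratios of 98 (95% counting interval 33.3 to 478) and 113 (38.5 to 552). P2ry2, a receptor for UTP and ATP, was 1.51 ± 0.26. Other G protein-coupled receptor genes of microglia also divided: Gpr84, a receptor for medium-chain fatty acids (409, 337 and 321 CPM with R848 against 4.62, 6.29 and 6.94 CPM with IFN-α, 5.88 ± 0.17), Gpr18 (5.56 ± 0.38) and Hcar2, the niacin receptor (3.78 ± 0.11), were higher, and Gpr183, the oxysterol receptor (-3.16 ± 0.46), and Gpr65, a proton sensor (-2.31 ± 0.20), were lower. Adjusted p-values for the log2 fold changes here reached at most 8.13e-05, for P2ry2.

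Receptors for microbes, debris and antibodies showed a similar exchange. Of 32 C-type lectin, TREM, CD300 and Siglec genes 18 were higher and 11 lower. Clec4e, which encodes the mycobacterial glycolipid receptor Mincle, was at 1146, 1365 and 1335 CPM in the R848 libraries and 11.3, 14.2 and 13.9 CPM in the IFN-α libraries (6.60 ± 0.13), and Trem1, an amplifier of inflammation, was 4.91 ± 0.27. Klrk1, which encodes the stress-ligand receptor NKG2D, had 0, 0 and 1 counts in the R848 libraries and was at 56.7, 60.1 and 51 CPM with IFN-α, a ratio of IFN-α to R848 of 521 (95% counting interval 92.9 to 20608). Formyl peptide receptors, which detect bacterial products, were higher: Fpr1 (424, 496 and 482 CPM with R848 against 6.30, 2.75 and 5.21 CPM with IFN-α, 6.61 ± 0.17) and Fpr2 (4.07 ± 0.18). Cxcr4 was lower (-2.31 ± 0.12). Among Fc and complement genes 7 of 25 were higher and 12 lower, and the activating Fcγ receptors Fcgr1 (8.04, 12.2 and 11.4 CPM with R848 against 732, 720.2 and 734 CPM with IFN-α, -6.11 ± 0.13), Fcgr4 (-4.22 ± 0.16) and Fcgr3 (-2.04 ± 0.10) lay opposite the inhibitory Fcgr2b (1.28 ± 0.10). Among scavenger and phagocytic receptors 10 of 20 were lower, including the apoptotic-cell receptors Mertk (-2.18 ± 0.21) and Axl (-1.62 ± 0.088), while Olr1 (4.49 ± 0.23) and Marco (2.95 ± 0.25) were higher. Marco, a receptor for bacteria and particles, was at 1105, 1132 and 1129.9 CPM in the R848 libraries and 176, 173 and 88.9 CPM in the IFN-α libraries, lowest in replicate 3 and without overlap with R848. Across the log2 fold changes given here the largest adjusted p was 1.18e-04, for Marco.

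Among colony-stimulating factors and their receptors 2 of 9 tested genes were higher and 5 lower (median -0.38). Csf2 and Csf3, the genes of GM-CSF and G-CSF, had 1 and 2 counts over the IFN-α libraries and 26.6, 19.6 and 33.4 CPM and 33.7, 31.4 and 34.3 CPM in the R848 libraries, ratios of 208 (95% counting interval 37 to 8251) and 129.5 (35.6 to 1074). The lower genes were led by Kitl, the ligand of the receptor KIT (-1.97 ± 0.17), and the receptor chain genes Csf2rb2 (-1.37 ± 0.10) and Csf3r (-1.05 ± 0.13). Of 36 adhesion, protease and coagulation genes 20 were higher and 5 lower, led by the aggrecanase Adamts4 (3.83 ± 0.26), the vasodilator adrenomedullin (Adm, 3.77 ± 0.22), the protein C receptor Procr (3.11 ± 0.25) and the gelatinase Mmp9 (3.08 ± 0.32). Without replicate 1 of both groups, 8 were lower. edgeR's adjusted p for these log2 fold changes was at most 9.47e-07, for Csf3r.

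Metabolic genes differed by pathway. Irg1 (also named Acod1), which makes the antimicrobial metabolite itaconate, was at 3571, 3286 and 3157 CPM in the R848 libraries and 673, 651 and 705 CPM in the IFN-α libraries (2.30 ± 0.082). Genes of nucleotide metabolism lay on the other side: Samhd1, which hydrolyses the dNTPs that viruses need, was at 19.8, 26.3 and 20.7 CPM with R848 against 773, 793 and 755 CPM with IFN-α (-5.12 ± 0.12), the deoxycytidine kinase gene Dck differed by -4.44 ± 0.14 and the pyrimidine nucleotidase gene Nt5c3 by -3.33 ± 0.17. Of 29 NRF2 targets and antioxidant genes 21 were higher and 2 lower (median 0.81). The cystine importer Slc7a11 was at 1651, 2004 and 2052 CPM in the R848 libraries and 63, 69.6 and 91.6 CPM in the IFN-α libraries (4.66 ± 0.13), and Srxn1 (3.35 ± 0.12), the autophagy receptor Sqstm1 (2.97 ± 0.13) and thioredoxin reductase Txnrd1 (2.91 ± 0.10) followed. The 2 lower members were Keap1, the inhibitor of NRF2 (-1.39 ± 0.14), and the NRF2 partner Mafk (-2.35 ± 0.25). Iron-handling genes were higher in 10 of 15 cases, led by the siderophore-binding Lcn2 (4.47 ± 0.18), and the ferritin heavy chain Fth1 was at 6896, 5652 and 5785 CPM with R848 against 2482, 2107 and 2229 CPM with IFN-α (1.43 ± 0.089). In the arginine, nitric oxide and NADPH oxidase list 12 of 19 were higher, and Nos2 had 173 and 3 counts over the groups, a ratio of 48.2 (95% counting interval 16.2 to 236). For every log2 fold change here the adjusted p was at most 1.85e-07, for Mafk.

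Genes of lipid and glucose metabolism also divided. Of 29 genes of glycolysis and hypoxia 16 were higher and 3 lower (median 0.42), with Slc16a3, which exports lactate (2.56 ± 0.13), and Slc2a1, which imports glucose (1.91 ± 0.13), above and the regulatory kinase Pfkfb3 (-1.99 ± 0.10) below. Without replicate 1 of both groups, 5 were lower. Sterol genes were higher in 18 of 35 cases and lower in 6 (median 0.37). Ch25h, which makes 25-hydroxycholesterol, was 2.27 ± 0.10, and the sterol exporter Abcg1 -3.03 ± 0.19. In prostaglandin synthesis the inducible enzymes were on the R848 side, with Ptges at 769.7, 719 and 688 CPM with R848 against 8.82, 10.6 and 12.8 CPM with IFN-α (6.06 ± 0.13) and Ptgs2 at 2.00 ± 0.13, and the constitutive Ptgs1 (-1.42 ± 0.23) and the prostaglandin-degrading Hpgd (-2.42 ± 0.36) on the IFN-α side. Lysosomal genes were lower in 21 of 33 cases and higher in 3, but by small amounts (median -0.43, 1 lower and 1 higher beyond 2-fold), among them Grn (-1.46 ± 0.19), whose product progranulin supports lysosomes, and Npc2 (-1.05 ± 0.079). Among these log2 fold changes the largest adjusted p was 3.58e-05, for Ptgs1.

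Transcription factor genes that set macrophage identity were divided. Of 32 genes 12 were higher and 11 lower. Cebpd (3.04 ± 0.14), Ets2 (2.94 ± 0.18) and Tfec (2.81 ± 0.17) were higher, and Spic, a factor of iron-recycling macrophages, was at 4.33, 7.77 and 5.41 CPM with R848 and 0 in all IFN-α libraries, at least 15-fold higher. Cebpa (104, 78.7 and 74.1 CPM with R848 against 561, 545 and 561 CPM with IFN-α, -2.70 ± 0.11) and Fli1 (-2.22 ± 0.15) were lower. The C/EBP genes Cebpd and Cebpa thus lay on opposite sides. In the AP-1, ATF and EGR list 10 of 17 were higher, led by Batf (3.27 ± 0.36), and 5 lower, led by its relative Batf2 (-4.04 ± 0.32). Of 17 dual-specificity phosphatase genes, many of which switch off MAP kinases, 4 were higher, led by Dusp2 (3.50 ± 0.30) and Dusp4 (2.30 ± 0.17), and 4 lower, among them Dusp28 (-3.21 ± 0.18) and Dusp6 (-0.78 ± 0.14). With DESeq2, or without IFN-α replicate 3, 2 were lower. The share of these phosphatase genes called was 47.1%, against 35.7% of all genes tested. In TGF-β signalling, which maintains microglial identity, 6 of 25 were higher and 9 lower: the ligand gene Tgfb1 was 1.09 ± 0.20, its receptor Tgfbr2 -1.78 ± 0.16, and Nrros, which holds latent TGF-β on microglia, -2.48 ± 0.13. The share called in the TGF-β list was 60%. Of 16 listed noncoding RNAs tested 6 were higher and 1 lower, a share of 43.8%. The miR-155 host gene Mir155hg had the highest fold of them (46.4, 51.3 and 48.7 CPM with R848 against 3.36, 3.93 and 2.43 CPM with IFN-α, 3.91 ± 0.22). The adjusted p of the genes given a log2 fold change here was at most 2.01e-04, for Tgfb1.

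Cell cycle genes gave no common direction (8 higher and 8 lower of 26). Mki67, a marker of dividing cells, was at 25, 23 and 21.6 CPM in the R848 libraries and 2.10, 4.72 and 2.08 CPM in the IFN-α libraries (2.96 ± 0.28, adjusted p = 2.95e-08). Top2a (0.15 ± 0.46), Ccna2 (-0.34 ± 0.28), Ccnb1 (0.29 ± 0.39) and Cdk1 (0.076 ± 0.27), other genes of dividing cells, were not called (adjusted p from 0.373 to 0.862). Mki67 formed a run of 3 on the R848 side with its neighbours 5830432E09Rik (21, 22.6 and 18.1 CPM with R848 against 6.72, 3.54 and 4.86 CPM with IFN-α, 2.03 ± 0.25) and Ptpre (201, 182 and 182 CPM with R848 against 50.4, 52.3 and 43 CPM with IFN-α, 1.96 ± 0.12), genes chosen, like these 4, after their values were seen. The growth arrest gene Gadd45a (2.65 ± 0.19) was higher and the replication helicase gene Mcm6 (-2.43 ± 0.16) and the MYC antagonist Mxd1 (-2.75 ± 0.17) lower.

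For 4 broad classes the share called was below the 35.7% of all genes, a difference that was not tested. Cytosolic ribosomal protein genes were called higher in 2 and lower in 1 of 75 cases (median -0.0063), and up to 7 were higher over the alternatives, with upper-quartile factors. Oxidative phosphorylation genes were lower in 5 of 26 cases and higher in none, with no difference beyond 2-fold, and from 1 (library totals) to 7 were lower over the alternatives. Histone cluster genes were lower in 6 of 39 and Zfp genes higher in 33 and lower in 24 of 261 (15 lower with DESeq2). Solute carriers were above it, with 51 higher and 33 lower of 181. A count near the share of all genes says nothing particular of a list. Of the 6965 genes not called, the 95% interval of the fold lay within 2-fold for 5603 and within 1.5-fold for 2811, so that larger differences in the remaining genes were not resolved at this depth. Of the 15 markers of microglia and macrophages 2 were higher with R848 and 8 lower (median -0.35). Csf1r and Itgam, both among these markers, had log2 differences of -0.034 ± 0.16 (95% interval -0.37 to 0.31, adjusted p = 0.90) and -0.032 ± 0.11 (-0.27 to 0.21, adjusted p = 0.863), and their sign turned with other scalings. Tmem119, a marker of settled microglia, was at 4.02, 4.39 and 3.82 CPM with R848 against 1.68, 3.54 and 4.17 CPM with IFN-α (adjusted p = 0.547), while Aif1, which encodes IBA1, was lower (-1.52 ± 0.27, adjusted p = 1.18e-04) and Cx3cr1 higher (0.91 ± 0.12, adjusted p = 2.43e-06).

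**Figure D5:**
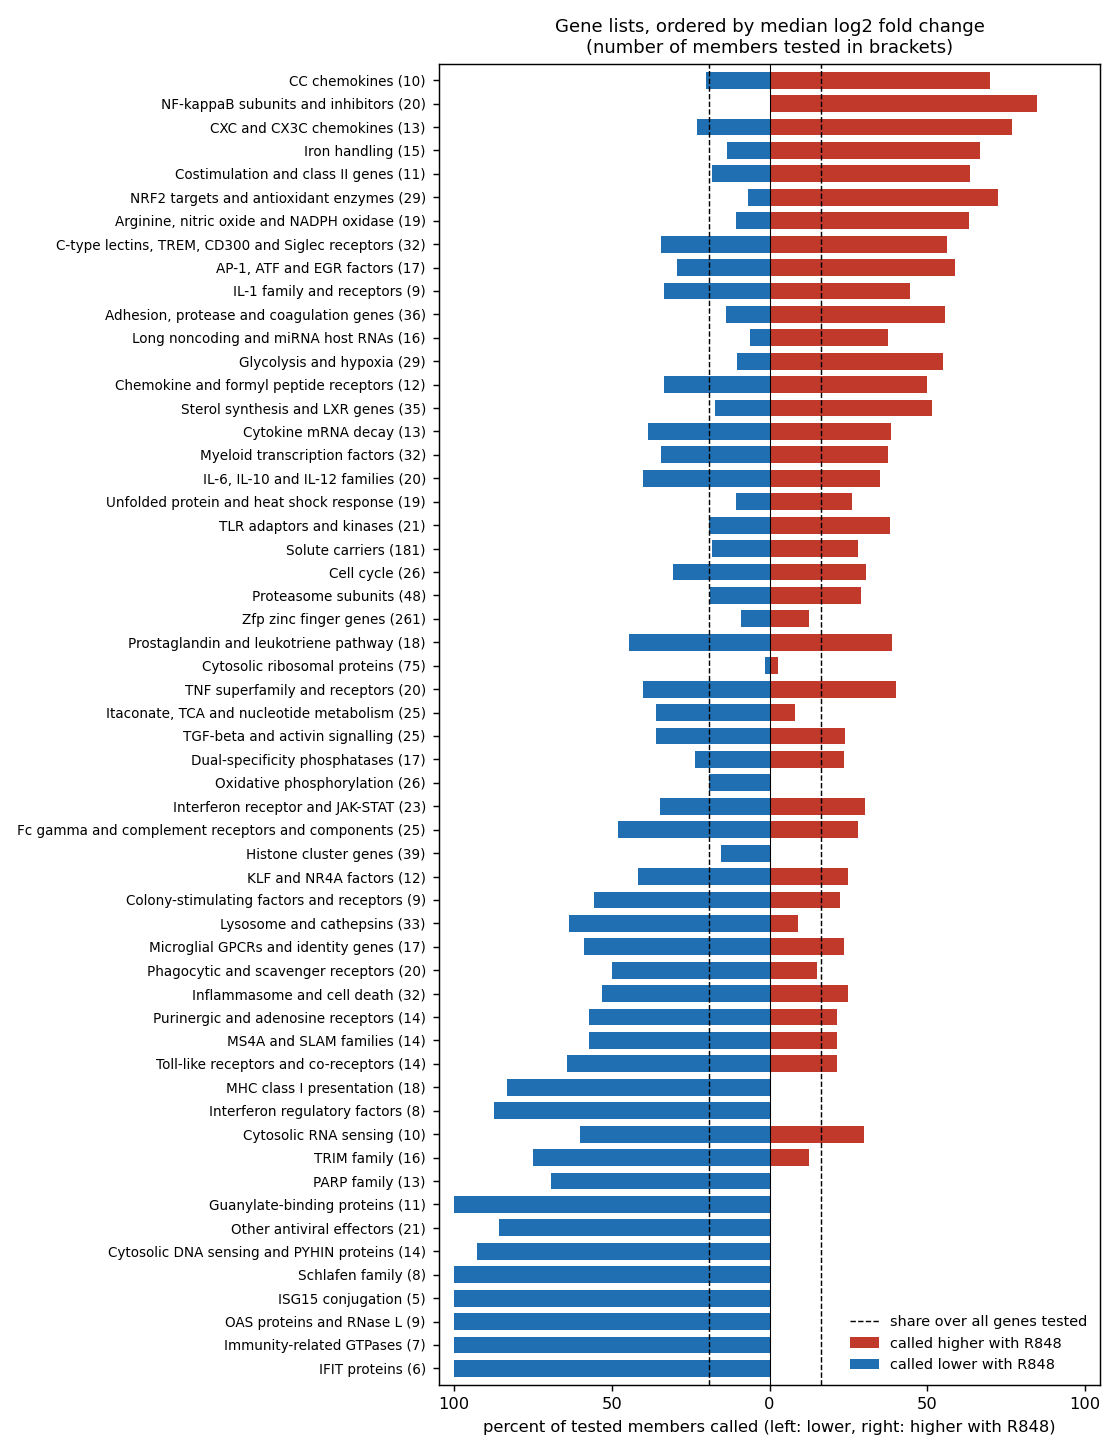
Percent of tested members called higher (red, right) and lower (blue, left) with R848 in the lists and families with at least 5 tested members, ordered by median log2 fold change, with the number tested in brackets. Dashed lines mark the shares over all genes tested, 16.4% and 19.3%; NF-κB and chemokine lists stand at the top and the IFIT, OAS and GTPase lists at the bottom, where all tested members were lower.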

How the data were processed

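RNA from primary microglia was sequenced in 9 libraries after removal of ribosomal RNA, per the labels' protocols, as directional paired-end reads; the 6 libraries given R848 or IFN-α alone enter the fit. The deposited files hold raw read counts per gene. CASAVA 1.8.2, Trimmomatic 0.33, STAR 2.5.1, DESeq2 and build mm10 are listed in the submitters' processing notes; no annotation release is named there. The column for the reverse strand was used, since the opposite one held 1.15% to 1.50% of the gene counts of both strands together. The 4 summary rows were left out (unmapped 19.8% to 26.3%, several places 7.22% to 8.51%, no gene 39.3% to 44.4% of read pairs).

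Counts were fitted with edgeR 4.0.16 in R 4.3.3 (TMM factors, filterByExpr with a minimum count of 10 and total of 15, quasi-likelihood F test, Benjamini-Hochberg adjustment over all 10829 genes, threshold 0.05); "beyond 2-fold" is glmTreat against a log2 fold change of 1. Fold changes are R848 minus IFN-α, and their SE is approximate. CPM uses TMM-scaled totals. The intervals of count ratios are exact and cover counting error only, and genes at 0 are set against 3 counts over the group, which leaves the lists' medians as they are. limma 3.58.1 and DESeq2 1.42.0 served among the alternatives. The fit was tested on simulated data.

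The 63 lists, the comparison and the tests were chosen with earlier results of these data known. Genes are named by a rule: the 12 largest changes in each direction at a mean of at least 5 CPM, up to 4 per direction in each list, the 10 most abundant per group beyond 2-fold, and a set of pathway genes whatever they show. Positions and promoters are RefSeq's (GRCm38.p6), matched by symbol (10806 and 8693 of the 10829 genes). Some items are not reported here. No label says whether the replicate numbers pair the samples. Deviations of same-numbered libraries correlated at 0.0707, 0.0351 and 0.0307, and those of the other pairs at -0.0968 to 0.0670. With so few libraries these values cannot decide it.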

Additional observations from a re-analysis of the deposited data

Results flagged for a closer look

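Counts on the strand opposite to an annotated gene were not used for that gene above. Where another gene lies on that strand they can be the same reads as were counted for it. For 7 annotated genes with at least 100 such counts, at least 90% of all their counts lay on the opposite strand and the groups differed by at least 8 times after 3 counts were added to each. The difference was not tested, and each sum below is over 3 libraries.

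Across from Gm14023, whose annotation overlaps Il1a on the other strand (chr2:129297370-129307826), the opposite strand held 10585 counts with R848 and 18 with IFN-α, against 43 on its own strand in all 6 libraries. Il1a itself had 46141 and 113 counts. The R848 libraries held 3643, 3213 and 3729, so all 3 were high. Across from 4933416M07Rik, which overlaps Rab11fip1, there were 158 counts with R848 and 5 with IFN-α. Across from Mir6244, which lies within Zc3h12c, there were 253 and 18. Opposite counts of Mir1198 numbered 685 and 51, and those of 8430408G22Rik 117 and 6.

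On the IFN-α side, Slfn5os, which overlaps Slfn5 and Unc45b, had 476 opposite counts with IFN-α and 34 with R848. Slfn5 had 12708 and 779 counts on its own strand. For 3110062M04Rik, which had no RefSeq position, there were 1747 and 96.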

How the results depend on the processing

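Over the 18 alternatives, 1482 to 2144 genes were higher with R848, 1686 to 2290 lower, 310 to 454 higher beyond 2-fold and 509 to 702 lower beyond 2-fold, all within 1.5 times of the values above. The replicate block, fitted although no label pairs the samples by number, gave 1952 higher and 2227 lower, and 428 and 693 beyond 2-fold. Leaving out replicate 1 of both groups, the libraries with the most Rn45s, was chosen after seeing the data and gave 1911 and 2168. DESeq2 gave 1526 and 1746, and every one of those genes was also called, in the same direction, by edgeR. Of 381 named genes that were called, 352 kept the call in every alternative that tested them and 29 lost it in at least 1; the cause was not tested. Csf1r and Itgam, not called at -0.034 and -0.032, changed sign. Under upper-quartile factors Csf1r was 0.040 and under library totals 0.061, and it ran from -0.29 to 0.12 when 1 library was left out; the low end, without R848 replicate 1, passed at an edgeR adjusted p of 0.0191. Itgam was 0.043 and 0.069 with those scalings and ran from -0.092 to 0.046 when 1 library was left out. Fits without 1 library leave 2 in that group, whose spread is estimated with the other group's. A gene needed about 10 counts in 3 libraries to be tested, and 3 counts correspond to about 1 CPM, so differences among rarer transcripts were not detectable.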

Other observations

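Several groups described briefly or not at all above also held genes on both sides. Of 14 MS4A and SLAM genes, which encode membrane receptors of immune cells, 8 were lower with R848 and 3 higher. The share called was 78.6%, against 35.7% of all genes tested. Ms4a4c was at 1.85, 1.69 and 0.954 CPM with R848 against 87.8, 114 and 84.4 CPM with IFN-α (-5.95 ± 0.24 log2 ± SE), and Slamf8 differed by -3.71 ± 0.24, with Cd84 at -1.93 ± 0.11. Solute carriers on the IFN-α side were led by the mitochondrial glutamate carrier Slc25a22 (-3.07 ± 0.18) and the lysosomal nucleoside transporter Slc29a3 (-2.67 ± 0.17), and on the R848 side, after Slc7a11, by the zinc importer Slc39a14 (3.10 ± 0.19). Zfp811, a zinc finger gene, was at 24.7, 32.4 and 29.6 CPM with R848 against 0, 1.57 and 0 CPM with IFN-α (5.70 ± 0.44). It had the highest fold among the 261 tested Zfp genes, of which 21.8% were called, below the share of all genes. Among genes of the unfolded protein response Herpud1 was 2.47 ± 0.17, with 5 of 19 higher and 2 lower (1 lower with library totals). The share called in that list, 36.8%, was near the 35.7% of all genes tested. edgeR's adjusted p for the log2 fold changes here was at most 1.43e-09, for Zfp811.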
